A study of Homo sapiens with 9 samples.

Results

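The SR splicing factor genes described here are 10 genes, SRSF1, SRSF2, SRSF3, SRSF4, SRSF5, SRSF6, SRSF7, SRSF11, TRA2A and TRA2B. They were chosen by name, as SR protein and TRA2 genes known to be autoregulated through poison exons, out of 60664 genes in the deposited count table. The choosing rule used no measured value, but it was made with earlier results of these data known. All 10 were found by gene identifier, and all 10 were among the 21139 genes that passed the filter on low counts. RNA was sequenced from HEK293T cells, an immortal human embryonic kidney line that carries the SV40 large T antigen. Untreated cells (NC) were compared with cells heated at 43 °C for 1 h (H1). Cells heated in the same way were also collected after recovery at 37 °C, which lasted 1 h in H1R1, 6 h in H1R6 and 18 h in H1R18. There was 1 library of H1R18 and 2 of every other condition. The labels name no other treatment and no genetic change in any condition.

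SR proteins bind short enhancer sequences in exons through RNA recognition motifs and recruit the spliceosome through a domain rich in arginine and serine, the RS domain. TRA2A and TRA2B are close relatives that have an RS domain on each side of the RNA recognition motif and bind GAA-rich enhancers. Many of these genes limit their own protein: when the protein is abundant, it promotes inclusion of a poison exon, which carries a stop codon in frame, and the transcript is degraded by nonsense-mediated decay. Kinases of the CLK and SRPK families phosphorylate the RS domains, and heat stress is known to alter that phosphorylation and to disturb splicing.

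Poison exons matter here because the deposited counts add up all exons of a gene. GENCODE 29 lists 12 internal exons that occur in nonsense-mediated decay transcripts of SRSF3, SRSF4, SRSF6, SRSF7 and SRSF11 and overlap no exon of a coding transcript of the same gene. All 12 lie within exons of the deposited annotation, so their reads were counted together with those of the protein-coding mRNA. For SRSF1, SRSF2, SRSF5, TRA2A and TRA2B this rule found no exon, though GENCODE 29 lists 3, 2, 1, 1 and 1 nonsense-mediated decay transcripts of them. The rule passes over exons that overlap an exon of a coding transcript, so these 5 genes may still have poison exons among their counted bases. In 8 of them, in SRSF3, SRSF4, SRSF6 and SRSF7, the open reading frame ends. Not all of the 12 are separate regions. The SRSF4 exons of 195 and 228 bases overlap each other, as do the SRSF7 exons of 276 and 449 bases. The exons are 69 to 456 bases long, and 7 have a length that is not a multiple of 3. The longest such exon with a stop codon in each of the 4 genes is printed here from its first base to the stop codon, 5′ to 3′ on the strand of the gene, with the stop codon in capitals (sequence from GENCODE 29 transcripts, GRCh38).

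SRSF3, exon 4 of 7, chr6:36599821-36600276, plus strand, 456 bases: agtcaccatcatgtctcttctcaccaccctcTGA

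SRSF4, exon 2 of 3, chr1:29159864-29160058, minus strand, 195 bases: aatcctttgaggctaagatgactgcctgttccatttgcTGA

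SRSF6, exon 3 of 7, chr20:43459153-43459420, plus strand, 268 bases: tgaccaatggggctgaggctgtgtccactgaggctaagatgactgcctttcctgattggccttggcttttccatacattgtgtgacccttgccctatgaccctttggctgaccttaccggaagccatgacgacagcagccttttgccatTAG

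SRSF7, exon 4 of 9, chr2:38748898-38749346, minus strand, 449 bases: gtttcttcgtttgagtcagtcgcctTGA

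Before the stop codon the frame ran through 31 bases of the exon in SRSF3, 38 in SRSF4, 149 in SRSF6 and 25 in SRSF7. A transcript that includes one of these exons therefore gives reads for the gene while its frame ends early. The levels reported below are those of all transcripts of a gene, and a shift between coding and poison-exon transcripts cannot be told apart from a change in the amount of RNA.

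Levels are given as CPM, the number of counts of a gene scaled to a common library size, with scaling between libraries by the trimmed mean of M values (TMM). Total counts per library ranged from 3814195 to 6221613, and the 10 genes had between 279 and 2794 counts each in a library. Of the 8 markers of embryonic kidney cells examined, 6 averaged a CPM of at least 1 and PAX8 and LHX1 did not, with a summed level of 443 to 567 CPM. VIM alone averaged 242 CPM of this sum, and the paper describes vimentin as high in HeLa cells. The sum is therefore not specific to HEK293T cells. The summed level of 7 HeLa markers was 19.5 to 29.7 CPM, with KRT5 and KRT6A at 0, and that of 7 liver (Huh7) markers was at most 1.41 CPM. The heat shock genes HSPA6, DNAJB1 and HSPH1 were higher at H1 than in NC by 6.97, 4.74 and 3.68 on the log2 scale, so these libraries match their label. In bulk RNA, a lower level of a gene in each cell and a smaller share of cells that express it cannot be told apart. Whether the 2 libraries of a condition are separate cultures is not stated in the labels, so p-values measure the spread between these libraries, which may be technical.

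The 10 genes together made up 0.180% to 0.273% of all counts. Their summed level was 2229 and 2411 CPM in NC, 2405 and 2479 CPM at H1, 2839 and 2683 CPM at H1R1, 2333 and 2428 CPM at H1R6 and 1767 CPM at H1R18. The sum was highest in both libraries taken 1 h into recovery and lowest in the library taken after 18 h. Behind this sum the single genes followed different courses, which the plot of levels by library shows.

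**Figure D1:**
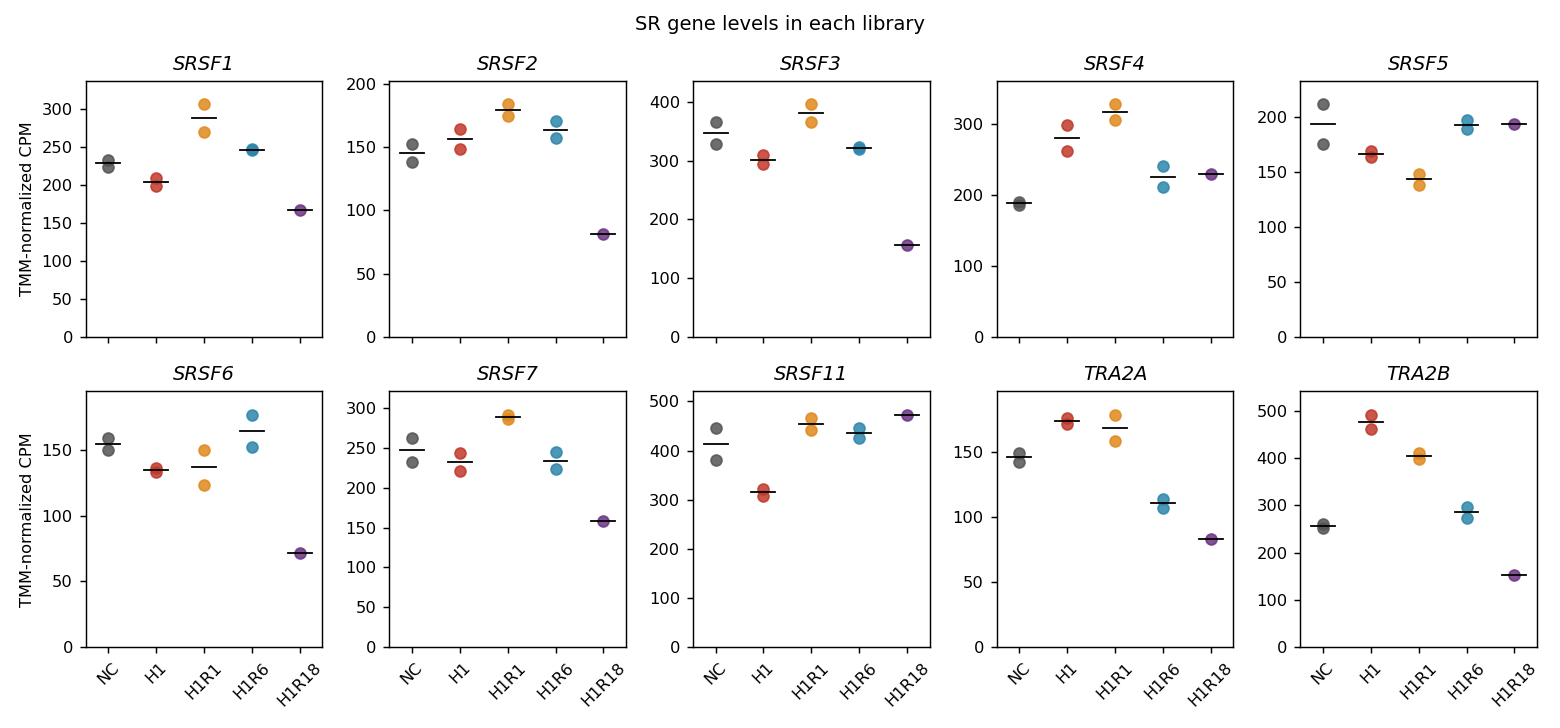
Level of each SR gene in TMM-normalized CPM (vertical axes, starting at 0) with 1 dot per library, grouped by condition, and a line at each condition's mean. TRA2B stands at 462 and 492 CPM in the H1 libraries against 252 and 260.4 CPM in NC, while SRSF3 falls to 157 CPM in the single H1R18 library.

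Divided by the full length of the annotated exons, SRSF7 had the highest level in NC, at 61.2 CPM per kb. SRSF3, SRSF11 and SRSF2 followed at 48.8, 48.7 and 48.7 CPM per kb, and their libraries overlapped. TRA2A was at 41.5 CPM per kb, and SRSF1 at 39.5 overlapped SRSF5 at 36.2 CPM per kb. SRSF6 at 31.6, SRSF4 at 21.4 and TRA2B at 19.6 CPM per kb closed the order, each above the next in both NC libraries. SRSF7 was also first at H1 (57.5 CPM per kb), H1R1 (71.4) and H1R6 (57.8), although its libraries overlapped those of SRSF2 at H1 and H1R6. At H1R18 the first place went to SRSF11 at 55.8 CPM per kb and the last to TRA2B at 11.6 CPM per kb, each in 1 library. These lengths include exons that most transcripts of a gene may lack, and genes with long annotated exons, such as TRA2B with 13084 bases, come out low on this scale. They also include bases shared with another gene, whose reads were not counted. Such bases make up 35.8% of the length in SRSF2, 35.1% in SRSF1, 13.4% in SRSF6 and 1.9% in SRSF4. The levels per kb of these genes are therefore too low, and their places in the order, also relative to SRSF7, are not settled.

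Heat stress for 1 h raised TRA2B and SRSF4. SRSF11 was lower, but its call was lost without NC replicate 2 or without H1 replicate 2. Of the 10 genes, 2 were higher and 1 was lower at H1 than in NC (edgeR quasi-likelihood test, adjusted p under 0.05). Over all genes tested, 3.43% were higher and 1.77% were lower, and among the 1515 tested genes at least as abundant as the least abundant of the 10, 7.52% were higher and 4.09% were lower. The median log2 fold change of the 10 genes was -0.12, against -0.01 over all genes tested. Changes against NC are shown in the plot of log2 fold changes. The comparisons of H1, H1R1, H1R6 and H1R18 with NC share the same 2 NC libraries.

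**Figure D2:**
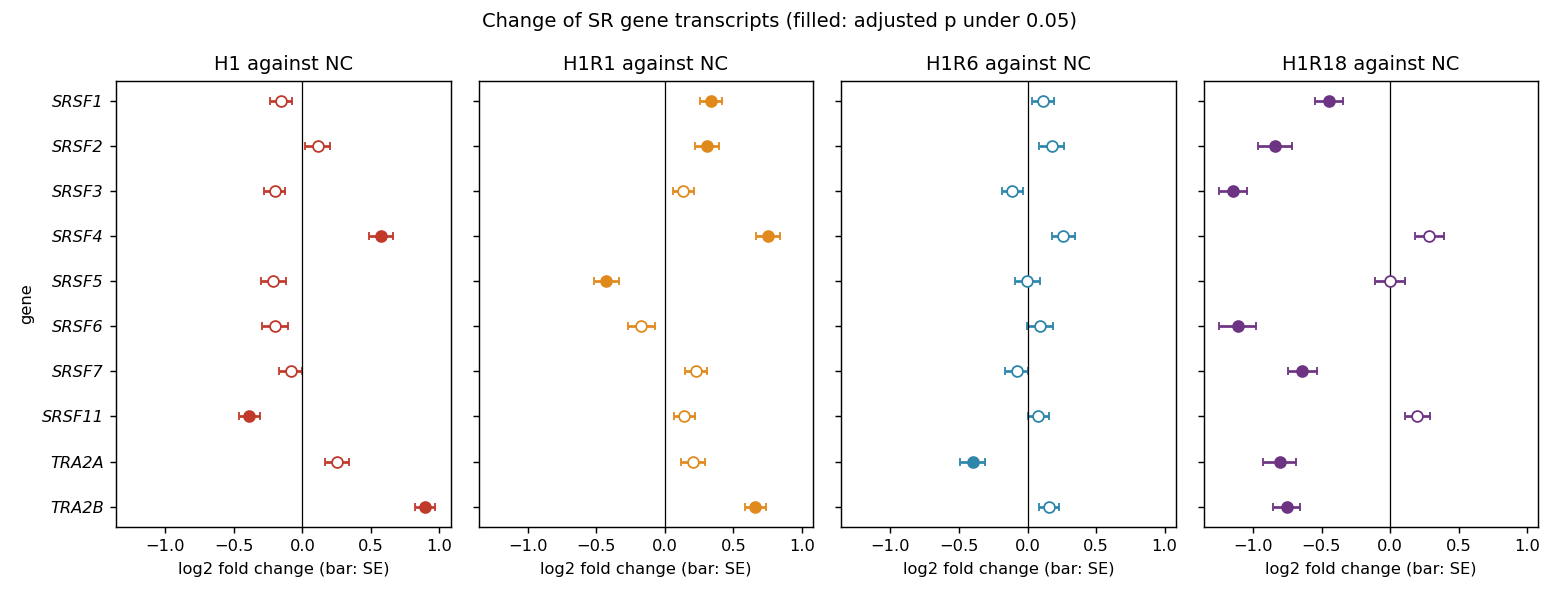
Log2 fold change against NC (horizontal axes, bars are SE) of each SR gene (rows) at H1, H1R1, H1R6 and H1R18, with filled points at an adjusted p under 0.05. TRA2B lies at 0.90 at H1 and at -0.75 at H1R18, and 7 of the 10 points at H1R18 are filled, all left of 0.

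TRA2B (ENSG00000136527, chr3:185914558-185938103, minus strand, GRCh38) is a sequence-specific activator of exon inclusion. Its level was 252 and 260.4 CPM in the NC libraries and 462 and 492 CPM in the H1 libraries. Both H1 libraries were far above both NC libraries. The log2 fold change was 0.90 (SE 0.07, adjusted p = 2.46e-10), or 1.86-fold, the largest change of any of the 10 genes at H1. At H1R1 the level was 411 and 399 CPM, below both H1 libraries and above both NC libraries, and differed from NC by 0.66 on the log2 scale (adjusted p = 6.75e-08, SE 0.07). After 6 h it was 274 and 297 CPM, and the difference from NC of 0.16 on the log2 scale did not pass the test (adjusted p = 0.246, 95% interval 0.01 to 0.30). The H1R18 library was at 152 CPM, below every other library, and its log2 fold change was -0.75 (adjusted p = 2.49e-06, SE 0.10). TRA2B thus passed the test in opposite directions at H1 and H1R18, and both calls held in all alternative analyses.

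SRSF4 (ENSG00000116350, chr1:29147743-29181900, minus strand) encodes the SR protein with the longest RS domain of the classical family. NC libraries held 190.1 and 186 CPM, H1 libraries 262 and 298 CPM, and H1R1 libraries 327 and 306 CPM. The 3 conditions did not overlap in any library. Its log2 fold change against NC was 0.57 at H1 (SE 0.09, adjusted p = 2.7e-05) and 0.75 at H1R1 (SE 0.09, adjusted p = 7.25e-08). With 211 and 240.4 CPM at H1R6 and 229.7 CPM at H1R18, all later libraries lay above both NC libraries. The log2 fold changes were then 0.26 (95% interval 0.09 to 0.43, adjusted p = 0.06) and 0.29 (0.08 to 0.50, adjusted p = 0.0777), and neither passed the test. SRSF4 was the only one of the 10 genes above both NC libraries in every later library. At H1R6 the call was made in 6 of 18 alternative analyses and at H1R18 in 3 of 17.

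SRSF11 (ENSG00000116754, chr1:70205682-70253052, plus strand), an SR-related protein that interacts with the large subunit of U2AF, moved the other way at H1. It was at 379.9 and 446 CPM in NC and at 322 and 308 CPM at H1. Both H1 libraries were below both NC libraries, and the NC libraries differed from each other by more than the H1 libraries did. The log2 fold change of -0.39 (adjusted p = 0.00118, SE 0.08) passed the test, but the call was lost without NC replicate 2 (log2 fold change -0.26) or without H1 replicate 2 (highest adjusted p = 0.0771). At H1R1 the level was 467 and 443 CPM, at H1R6 it was 446 and 425 CPM, and at H1R18 it was 473 CPM. None of these 3 conditions differed from NC by the test, with log2 fold changes of 0.14 (95% interval -0.01 to 0.29), 0.08 (-0.07 to 0.23) and 0.20 (0.02 to 0.38). Without NC replicate 2, SRSF11 was called higher at H1R1 (log2 fold change 0.27, adjusted p = 0.0269) and at H1R18 (0.33, adjusted p = 0.024).

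The counted exons of TRA2B and SRSF4 had the smallest share in coding transcripts. Of the exon bases counted for TRA2B, 23.1% lie in exons of GENCODE 29 coding transcripts, and for SRSF4 the share was 26.1%. The other 8 genes had shares of 55.4% (SRSF1) to 96.9% (SRSF2), with 56.5% for SRSF11. The counted exons come from a later Ensembl annotation, and the remaining bases were not classified. Besides nonsense-mediated decay transcripts (1 of TRA2B and 2 of SRSF4), GENCODE 29 lists transcripts that retain an intron, 8 of TRA2B and 4 of SRSF4. The other genes have from 0 (SRSF6 and SRSF11) to 8 (SRSF5) of these. The 2 genes with the lowest shares were the 2 genes that rose at H1. Across the 10 genes, the share and the log2 fold change against NC had a Spearman's rho of -0.28 and a Pearson's r of -0.62 at H1. For H1R1 both were -0.61, for H1R6 rho was -0.32 and r was -0.20, and for H1R18 rho was -0.59 and r was -0.48. These are descriptions across genes, which are not independent replicates and share their libraries. Which exons gave the added reads was not tested, since the deposited counts hold 1 value per gene.

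**Figure D3:**
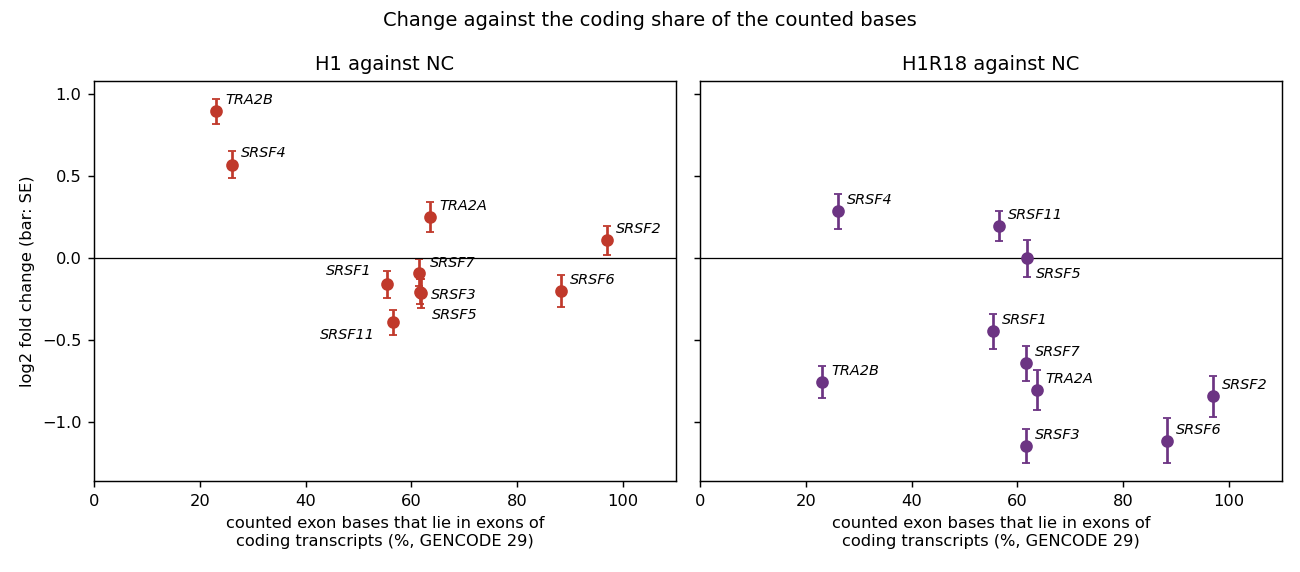
Log2 fold change against NC (vertical axis, bars are SE) of the 10 SR genes at H1 (left) and H1R18 (right), by the percentage of counted exon bases that lie in exons of GENCODE 29 coding transcripts (horizontal axis). At H1 TRA2B (23.1%) and SRSF4 (26.1%) stand at the upper left, and the other 8 genes lie between -0.39 and 0.25.

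The remaining 7 genes did not pass the test at H1. TRA2A (ENSG00000164548, chr7:23504780-23532041, minus strand), the paralog of TRA2B, was at 149.7 and 142 CPM in NC and at 172 and 176 CPM at H1. Both H1 libraries were above both NC libraries, and the log2 fold change was 0.25 (95% interval 0.08 to 0.43, adjusted p = 0.102). The ratio of TRA2B to TRA2A CPM was 1.68 and 1.83 in NC and 2.68 and 2.79 at H1. The other 6 genes had log2 fold changes between -0.21 (SRSF5) and 0.11 (SRSF2) at H1.

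After 1 h of recovery 5 of the 10 genes differed from NC. SRSF1, SRSF2, SRSF4 and TRA2B were higher and SRSF5 was lower at H1R1, 4 and 1 of the 10 genes. Over all genes tested, 10.7% were higher and 9.53% were lower. Among the 1515 genes at least as abundant, 33.3% were higher and 10.96% were lower, so the count of 4 higher is close to that background. The median log2 fold change of the 10 genes was 0.21, against -0.01 over all genes tested and 0.12 over those 1515.

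SRSF1 (ENSG00000136450, chr17:58000919-58007346, minus strand) encodes the founding SR protein, which strengthens recognition of 5′ splice sites. It was at 223 and 234 CPM in NC, 199 and 209 CPM at H1 and 306 and 269.8 CPM at H1R1. The H1 libraries were the lowest of the 3 conditions and the H1R1 libraries the highest, with no overlap. The log2 fold change was -0.16 at H1 (adjusted p = 0.32) and 0.34 at H1R1 (SE 0.08, adjusted p = 0.00276). The H1R1 call was lost without H1R1 replicate 1 (log2 fold change 0.24, adjusted p = 0.0972). Between H1 and H1R1 the gene rose by 0.50 on the log2 scale (adjusted p = 7.71e-05, SE 0.08).

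SRSF2 (ENSG00000161547, chr17:76734115-76737333, minus strand), whose protein marks nuclear speckles, had 138 and 152 CPM in NC and 184 and 174 CPM at H1R1. The H1 libraries, at 148 and 164 CPM, overlapped NC, and the H1R1 libraries did not. The log2 fold change at H1R1 was 0.31 (SE 0.09, adjusted p = 0.0146). This call was lost with scaling by library size only, without NC replicate 1 and without H1R1 replicate 1 (adjusted p up to 0.137). SRSF2 shares 1065 exon bases (35.8%) with MFSD11, a gene on the opposite strand, and the counts were made without strand, so reads that overlap both genes were not counted and the origin of the rest cannot be checked. MFSD11 had 79 to 214 counts in a library and did not differ from NC by the test at H1R1 (log2 fold change 0.15, adjusted p = 0.615).

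SRSF5 (ENSG00000100650, chr14:69726900-69772005, plus strand) was the only one of the 10 genes called lower than NC at H1R1. It was at 176 and 212 CPM in NC, 169.5 and 164 CPM at H1, 149 and 138 CPM at H1R1, 197 and 189 CPM at H1R6 and 193 CPM at H1R18. Both H1R1 libraries were below all other libraries, and the levels of the last 2 conditions lay between the NC libraries. The log2 fold change against NC was -0.43 at H1R1 (SE 0.09, adjusted p = 0.000888). At H1R6 and H1R18 it was -0.00 (95% interval -0.18 to 0.17) and 0.00 (-0.22 to 0.22). The ratio of SRSF4 to SRSF5 CPM was 1.08 and 0.878 in NC, 2.2 and 2.21 at H1R1 and 1.19 at H1R18.

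SRSF3 and SRSF7, whose proteins also serve as adaptors for mRNA export, rose between H1 and H1R1 without passing the test against NC at either time. SRSF3 (ENSG00000112081, chr6:36594353-36605600, plus strand) was at 329 and 366 CPM in NC, 293 and 309 CPM at H1 and 396 and 365 CPM at H1R1. Its H1 libraries were the lowest of the 3 conditions, and 1 of its H1R1 libraries lay just under the higher NC library. SRSF7 (ENSG00000115875, chr2:38743599-38751494, minus strand) was at 233 and 262 CPM in NC, 244 and 221 CPM at H1 and 292 and 286 CPM at H1R1. Both H1R1 libraries of SRSF7 were above both NC libraries, with a log2 fold change of 0.23 (95% interval 0.06 to 0.39, adjusted p = 0.0517) that passed the test in 4 of 18 alternative analyses. SRSF3 differed from NC at H1R1 by 0.13 (95% interval -0.02 to 0.28, adjusted p = 0.234).

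SRSF6 (ENSG00000124193, chr20:43457893-43466046, plus strand) encodes a further classical SR protein that acts on alternative exons. It was at 159 and 149.8 CPM in NC, 133 and 136 CPM at H1, and 150.0 and 124 CPM at H1R1. Both H1 libraries were below NC, and 1 H1R1 library lay between the NC libraries. Neither difference passed the test, with log2 fold changes of -0.20 (95% interval -0.39 to -0.01) and -0.17 (-0.37 to 0.02). TRA2A at H1R1, with 158 and 179 CPM, differed from NC by 0.20 on the log2 scale (0.03 to 0.38, adjusted p = 0.112).

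From H1 to H1R1, 4 of the 10 genes rose (SRSF1, SRSF3, SRSF7 and SRSF11) and 1 fell (TRA2B). Over all genes tested 6.35% rose and 5.08% fell, and among the 1515 genes at least as abundant 24.4% rose. SRSF11 had the largest rise, of 0.53 on the log2 scale (adjusted p = 1.26e-05). TRA2B fell by 0.24 on the log2 scale (adjusted p = 0.0298), and this call was lost without either H1 library or either H1R1 library.

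After 6 h of recovery TRA2A was the only 1 of the 10 genes that passed edgeR's test against NC, and it was lower. In the other direction 0 genes passed it, 2 had an unadjusted p under 0.05, and DESeq2 called 0. The background over all genes tested was 3.0% higher and 4.03% lower. Among the 1515 genes at least as abundant 12.1% were higher and 16.9% were lower, so 1 of 10 lower is not above that background. TRA2A was at 107 and 114 CPM, below both NC libraries at 149.7 and 142 CPM, with a log2 fold change of -0.40 (adjusted p = 0.00474, SE 0.09). The call was lost without NC replicate 1 or without H1R6 replicate 1 (adjusted p up to 0.105). TRA2B was at 274 and 297 CPM, and the ratio of TRA2B to TRA2A, 2.55 and 2.60, was above both NC ratios. The other 8 genes had log2 fold changes against NC from -0.11 (SRSF3, 319.5 and 323 CPM) to 0.26 (SRSF4). SRSF1 stood at 246 and 247 CPM, SRSF2 at 157 and 170.2 CPM, SRSF6 at 152 and 177 CPM and SRSF7 at 224 and 244 CPM.

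Between H1R1 and H1R6, 5 genes fell (SRSF3, SRSF4, SRSF7, TRA2A and TRA2B) and SRSF5 rose. Of all genes tested 8.93% fell and 6.43% rose. Among the 1515 genes at least as abundant 35.0% fell and 6.40% rose. TRA2A had the largest fall, with a log2 fold change of -0.60 (adjusted p = 1.21e-05, SE 0.09). SRSF5 rose by 0.43 (SE 0.09, adjusted p = 0.00109), from a mean of 143 CPM to 193 CPM, against 194 CPM in NC.

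After 18 h, 7 of the 10 genes were lower than in NC. In edgeR's test 0 were higher, 2 were higher at an unadjusted p under 0.05, and DESeq2 called 7 lower and 0 higher. Over all genes tested 6.43% were lower and 4.58% were higher, and among the 1515 genes at least as abundant 24.2% were lower and 10.96% were higher. The median log2 fold change of the 10 genes was -0.70, against -0.03 over all genes tested and -0.09 over those 1515. H1R18 is 1 library of 3822165 counts, so these values have no replicate check of their own, and the test assumes that it varies as the other conditions do. A change tied to that library and a change tied to the time point cannot be told apart. All 7 calls held in every alternative analysis, each of which used the same H1R18 library.

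The largest falls were those of SRSF3, SRSF6 and SRSF2. SRSF3 was at 157 CPM in the H1R18 library, below every other library, with a log2 fold change of -1.14 (adjusted p = 1.31e-09, SE 0.10), or 0.452-fold of NC. SRSF6 was at 71.6 CPM, with a log2 fold change of -1.11 (adjusted p = 7.49e-07, SE 0.14). SRSF2 was at 80.8 CPM, with a log2 fold change of -0.84 (adjusted p = 1.72e-05, SE 0.12). MFSD11, which shares exon bases with SRSF2, had a log2 fold change of -0.36 that did not pass the test (adjusted p = 0.39).

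TRA2A, at 83.7 CPM, and TRA2B, at 152 CPM, were also lower, with log2 fold changes of -0.81 (SE 0.12, adjusted p = 2.55e-05) and -0.75 (SE 0.10, adjusted p = 2.49e-06). Their ratio of 1.82 lay between the NC ratios. SRSF7 (159 CPM) and SRSF1 (168 CPM) had log2 fold changes of -0.64 (adjusted p = 0.000114) and -0.45 (adjusted p = 0.00435). In each of these 7 genes the H1R18 library was the lowest of all 9. They were called lower from that same library, so this adds no support. The share of all genes with that order was not counted. SRSF4, SRSF5 and SRSF11 were not lower, and the ratio of SRSF3 to SRSF11 CPM was 0.332 against 0.866 and 0.821 in NC.

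Against H1R6 SRSF1, SRSF2, SRSF3, SRSF6, SRSF7, TRA2A and TRA2B were lower at H1R18, the 7 genes that were lower against NC. Both comparisons use the same single H1R18 library, so the recurrence of these genes adds no independent support. In edgeR's test 0 were higher, also at an unadjusted p under 0.05 and by DESeq2, which called 6 lower. Of all genes tested 7.65% were lower and 6.28% were higher. Among the 1515 genes at least as abundant 26.5% were lower. The log2 fold changes ran from -0.40 (TRA2A) to -1.20 (SRSF6, SE 0.13, adjusted p = 1.37e-07).

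Genes that act with the SR proteins were examined as lists, whose share of called genes is shown in the plot by list. Over all genes tested, 10.7% were higher at H1R1, and 4.58% were higher and 6.43% lower at H1R18. Among the 1515 genes at least as abundant as the least abundant SR gene, these shares were 33.3%, 10.96% and 24.2%. The lists also hold genes below that SR gene, which averaged 7.13 in log2 CPM. RSRC2 averaged 6.97, CLK1 6.42, SNRPE 6.32 and SMG8 5.11, while others, such as SRRM2 and SON, were above it. The 1515 genes are therefore not matched to the lists in abundance. Whether a list stands out from genes as abundant as its own was not tested. Of 39 other genes with RS domains or RS-rich stretches, 3 were higher and 2 lower at H1, 18 higher at H1R1, 5 higher at H1R6, and 10 higher and 10 lower at H1R18. DESeq2 called fewer at H1R18, 8 higher and 4 lower. The median log2 fold change of this list at H1R18 was 0.03, against -0.70 for the 10 SR genes. SRRM2 and SON, the large scaffold proteins of nuclear speckles, were higher than in NC at H1R1 by 0.33 (adjusted p = 3.72e-05) and 0.45 (adjusted p = 1.39e-05) on the log2 scale. At H1R18 SRRM2 was higher by 0.53 (adjusted p = 7.27e-07), while SON differed by -0.13 (adjusted p = 0.378). The 3 genes of the list with the smallest p at H1R1 were U2AF2, a subunit of the factor that reads 3′ splice sites (0.64), RSRC2 (0.72) and SREK1 (0.60).

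**Figure D4:**
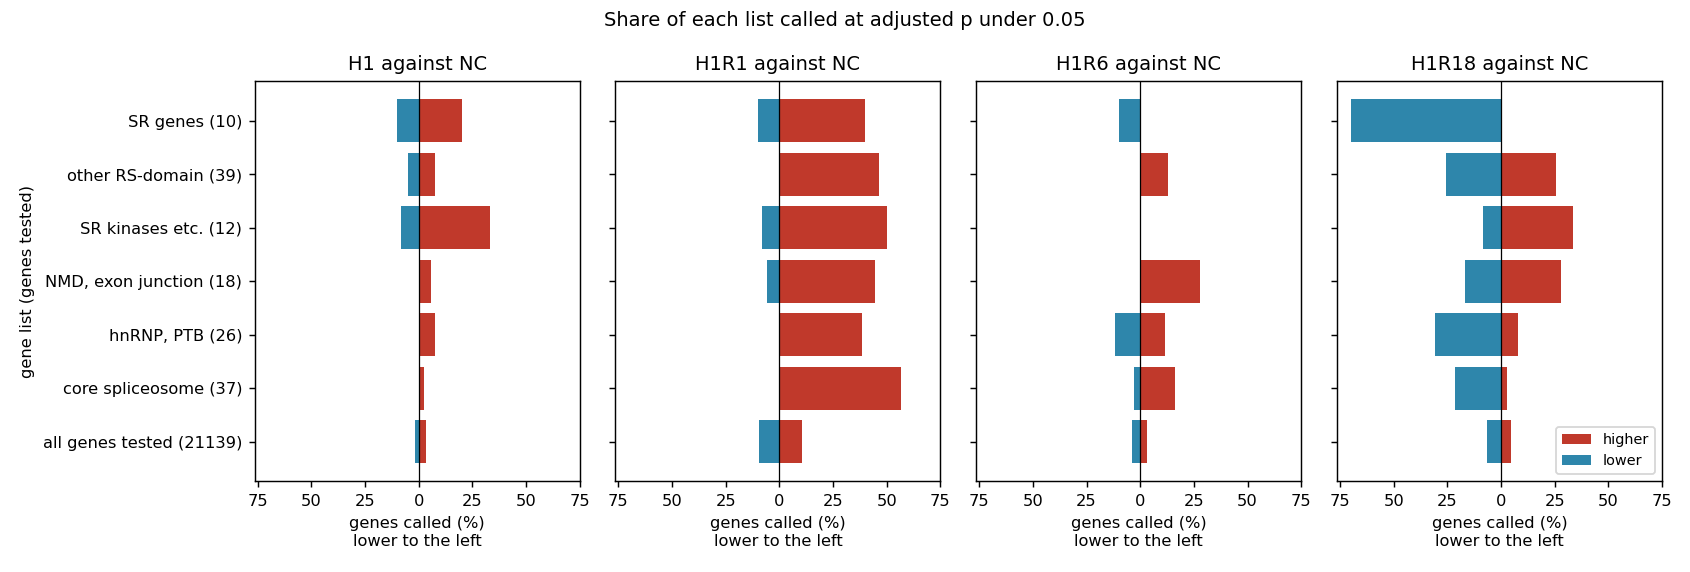
Percentage of the tested genes of each list (rows, with the number tested) called higher (red, to the right of 0) or lower (blue, to the left) than NC at an adjusted p under 0.05, by condition. At H1R18 7 of the 10 SR genes are lower, against 10 of 39 other RS-domain genes, 8 of 26 hnRNP and PTB genes and 8 of 37 core spliceosome genes (edgeR; DESeq2 called 7, 4, 7 and 5 lower).

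Of 12 tested genes for SR protein kinases, a phosphatase and nuclear import, 4 were higher and 1 lower at H1, 6 higher and 1 lower at H1R1, and 4 higher and 1 lower at H1R18. At H1R6 edgeR and DESeq2 called 0 of the 12, and 2 were higher at an unadjusted p under 0.05. CLK1, a nuclear kinase that phosphorylates RS domains, averaged 41.0 CPM in NC and 143 CPM at H1, a log2 fold change of 1.81 (adjusted p = 9.02e-13, SE 0.12). It was also higher at H1R1 by 1.56 (adjusted p = 1.6e-11) and at H1R18 by 0.92 (adjusted p = 8.07e-05), and at H1R6 it differed by -0.13 (adjusted p = 0.664). PRPF4B and DYRK1A, kinases that localise to nuclear speckles, were higher at H1R1 by 0.74 and 0.71 on the log2 scale, and PPP1CC, a catalytic subunit of protein phosphatase 1, was higher by 0.29 (adjusted p = 0.00323).

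Of 18 genes for nonsense-mediated decay and the exon junction complex, which act on poison-exon transcripts, 1 was higher at H1, 8 were higher and 1 lower at H1R1, 5 were higher at H1R6, and 5 were higher and 3 lower at H1R18. SMG8, a regulator of the SMG1 kinase, was higher at H1R1 by 1.55 on the log2 scale (adjusted p = 5.56e-08), and UPF2, a core decay factor, by 0.45 (adjusted p = 0.00174). SMG1 itself was higher by 0.24 at H1R1 and by 0.48 at H1R18 (adjusted p = 0.000178). ETF1, the translation release factor, was higher by 0.60 at H1R1 and lower at H1R18 (log2 fold change -0.59, adjusted p = 0.000242), and GSPT1, its partner, was higher by 0.23 at H1R1.

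Of 26 hnRNP and PTB genes, whose proteins often oppose SR proteins at exons, 2 were higher at H1, 10 were higher at H1R1, 3 higher and 3 lower at H1R6, and 2 higher and 8 lower at H1R18. HNRNPA2B1 was higher by 0.24 at H1 and 0.35 at H1R1 and lower at H1R18, with a log2 fold change of -0.45 (adjusted p = 3.21e-05). HNRNPAB and HNRNPC were higher at H1R1 by 0.49 and 0.48, and HNRNPU by 0.30. Of 37 tested core spliceosome genes, 1 was higher at H1, 21 at H1R1, 6 at H1R6 and 1 at H1R18, while 1 was lower at H1R6 and 8 at H1R18. DESeq2 called 16 of the 37 higher at H1R1 and 5 lower at H1R18. SF1, which binds the branch point, was higher by 0.58 at H1R1 and lower at H1R18, with a log2 fold change of -0.40 (adjusted p = 0.00422). SNRPE, DHX38 and SF3B1 were higher at H1R1 by 0.68, 0.56 and 0.33, and SNRNP200 differed by 0.10 (adjusted p = 0.236).

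The SR genes also differed in how closely they followed one another over the 9 libraries. The log2 CPM of SRSF2 had a Pearson correlation of 0.97 with the mean of the other 9 genes (0.85 without the H1R18 library), and that of SRSF7 had 0.93 (0.75). SRSF6 went from 0.69 to -0.46 when the H1R18 library was left out, and SRSF11 from -0.28 to 0.12. SRSF5 ran against the others, at -0.59 and -0.79. These are descriptions over libraries that share conditions and scaling.

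Outside the 10 genes, those whose log2 CPM was most like the mean of the SR genes were DHX9 (r = 0.995 over 9 libraries), SUPT16H (0.992), PRDX4 (0.990), DDX5 (0.990) and NCBP1 (0.987), among the 9667 genes whose average log2 CPM was at least 4. DHX9, an RNA helicase, was higher than NC at H1R1 by 0.30 on the log2 scale (adjusted p = 0.00256) and lower at H1R18, with a log2 fold change of -0.79 (adjusted p = 3.49e-07). Without the H1R18 library its correlation was 0.971. DHX9 was picked for a course like that of the SR genes. Its changes in the same directions follow from that choice and add no separate support. For TRA2B, the SR gene with the smallest p at H1R1, the most alike were NXT2 (r = 0.988), FNDC3A (0.974), VCP (0.972), POLR3C (0.968) and CDKN1A (0.967).

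The promoters of 8 of the 10 genes, in 10 windows of 250 bases before to 50 bases after the start (RefSeq, GRCh38.p14), were searched on both strands for a heat shock element of 3 units, GAA, TTC and GAA or TTC, GAA and TTC, with 2 bases of any kind between neighbouring units. The second order is the first read on the other strand. None of the 10 windows held a match, and 172 of 35116 windows of all genes (0.490%) did. The absence of these letters from the windows says nothing about binding of heat shock factors. The GC content of the windows was 53.67% to 74.67%.

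Overlapping genes could take or add reads in a few other cases. SRSF1 shares 440 exon bases with ENSG00000279069 on the opposite strand, which had 18 to 55 counts in a library, and 1890 bases with ENSG00000266086 on the same strand, which had 0 counts in every library. SRSF6 shares 654 bases with ENSG00000288000, also at 0 in every library. Reads that touch shared bases were assigned to no gene, so 35.1% of the exon bases of SRSF1 and 13.4% of those of SRSF6 gave no counts. SRSF3, SRSF5, SRSF7, SRSF11, TRA2A and TRA2B share no exon base with another gene.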

How the data were processed

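RNA-seq counts of 9 HEK293T libraries were analysed. The authors deposited raw counts per gene, made from rRNA-depleted total RNA. Their notes and file header name FastQC 0.11.8, cutadapt 4.1, HISAT2 2.2.1, featureCounts 2.0.2 and DESeq2 1.38.3 on Ensembl 104 (GRCh38); reads of a pair were counted singly, without strand, and reads with several alignments or genes were left out. Conditions came from the labels.

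Genes were filtered by filterByExpr (minimum count 10, minimum total 15), scaled by TMM and tested with edgeR's quasi-likelihood test over all 9 libraries (R 4.3.3, edgeR 4.0.16, limma 3.58.1), with Benjamini-Hochberg adjustment over 21139 genes and calls at 0.05. SE is the log2 fold change divided by the square root of F, and 95% intervals are 1.96 SE, unadjusted for the number of genes. The common biological coefficient of variation was 0.0905. Symbols were matched for 99.7% of identifiers. Exon classes came from GENCODE 29. The alternatives were DESeq2 1.42.0, scaling by RLE, by the upper quartile or by library size only, other filters, other sets of libraries, a replicate block and counts halved to read pairs. Scripts were tested on simulated data.

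The 10 genes and the gene lists were chosen with earlier results of these data known. Named besides the 10 were, from each list, the 3 genes with the smallest p at H1R1 and the 2 with the highest level, counted genes that overlap the exons of the 10, and the 5 genes most alike in pattern to their mean or to TRA2B (pseudocount 0.5).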

Additional observations from a re-analysis of the deposited data

Results flagged for a closer look

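Differences between successive times were tested directly, and each difference of an SR gene past the threshold is given here as a log2 fold change with its adjusted p (edgeR, quasi-likelihood test). From H1 to H1R1 the changes were 0.50 for SRSF1 (adjusted p = 7.71e-05), 0.34 for SRSF3 (0.00298), 0.31 for SRSF7 (0.0111), 0.53 for SRSF11 (1.26e-05) and -0.24 for TRA2B (0.0298). The SRSF3 and SRSF7 calls were each lost in 2 of 18 alternative analyses and that of TRA2B in 4. From H1R1 to H1R6 they were -0.24 for SRSF3 (0.0248), -0.49 for SRSF4 (8.12e-05), 0.43 for SRSF5 (0.00109), -0.30 for SRSF7 (0.00982), -0.60 for TRA2A (1.21e-05) and -0.50 for TRA2B (8.64e-06). The SRSF3 call was lost in 7 of 18 alternatives and that of SRSF7 in 3.

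From H1R6 to the single H1R18 library the changes were -0.56 for SRSF1 (adjusted p = 0.00033), -1.02 for SRSF2 (5.32e-07), -1.03 for SRSF3 (9.2e-09), -1.20 for SRSF6 (1.37e-07), -0.56 for SRSF7 (0.00044), -0.40 for TRA2A (0.023) and -0.91 for TRA2B (6.82e-08), again by edgeR. The TRA2A call was lost in 3 of 17 alternatives. No condition has enough libraries for a check of single outlying samples.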

How the results depend on the processing

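Of 34 differences of an SR gene past the threshold over the 7 comparisons, 24 were past it in every alternative and 0 changed direction. Of 36 that were not past it, 28 were past it in no alternative. Over all genes tested, leaving out 1 library of a compared condition lowered the number called in each direction. Fewer calls of SR genes in such fits are therefore not particular to them. With 1 library left out, the number of SR genes called was 2 to 4 at H1 against NC (3 with all libraries), 3 to 7 at H1R1 (5), 0 to 1 at H1R6 (1) and 7 to 8 at H1R18 (7). It was 2 to 5 from H1 to H1R1 (5), 5 to 7 from H1R1 to H1R6 (6) and 6 to 7 from H1R6 to H1R18 (7). At H1R6 against NC 2 genes were called, TRA2A and SRSF4, with RLE scaling, library size only, halved counts, no filter on low counts or at least 10 counts in every library.

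Only values near 0 that were not called changed sign, the largest value of the changed sign being 0.154 in size. SRSF5 at H1R6 against NC was 0.0119 (RLE), 0.0059 (upper quartile), 0.0280 (library size only), 0.0115 (DESeq2), 0.0323 (no filter), 0.0235 (at least 10 counts), 0.0053 (only the conditions compared), 0.0010 (without H1R18) and 0.0196 (halved counts). With no filter, SRSF5 was -0.0136 at H1R18 against NC, and at H1R18 against H1R6 SRSF4 was -0.0218 and SRSF5 -0.0460 (-0.0024 with only the conditions compared). With 1 library left out, values that changed sign ranged from -0.167 to 0.0089 (SRSF7 at H1 against NC), from -0.114 to 0.154 (SRSF5 at H1R6 against NC), from -0.0017 to 0.215 (SRSF6), from -0.146 to 0.0253 (SRSF7), from -0.0152 to 0.214 (SRSF11), and at H1R18 against NC from -0.109 to 0.156 (SRSF5). The ranges were -0.123 to 0.157 (SRSF6) and -0.137 to 0.0412 (TRA2A) from H1 to H1R1, and -0.0677 to 0.124 (SRSF4) and -0.0292 to 0.0311 (SRSF5) from H1R6 to H1R18. With library size only, SRSF6 was -0.0209 at H1R1 against H1 and SRSF11 0.0296 at H1R6 against H1R1.

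Libraries of different conditions with the same replicate number did not deviate together (r -0.055 to 0.036 over 9677 genes). This cannot show whether libraries with the same number were handled together, which the labels do not state. A fit with a replicate block gave the same call for 69 of 70 differences, losing TRA2A from H1R6 to H1R18, and called 7 SR genes at H1R18 against NC.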
